A study of Mus musculus with 8 samples.

Results

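Brown adipose tissue (BAT) of mice kept on a high-fat diet (HFD) was compared with BAT of mice kept on a control diet (CD). The comparison took 4 of the 8 RNA-Seq libraries of the series by their labels: CD replicates 6 and 8, and HFD replicates 2 and 6, so n = 2 in each group. All 4 came from wild-type male C57BL/6 mice that were 32 weeks old and had been on their diet for 28 weeks. The study's methods give a fat content of 54% of energy for the HFD and 11% for the CD. The labels call the control food normal chow, so which control food was fed is not settled. Of 49452 genes listed, 45146 are autosomal, and 17796 of these reached 0.1 FPKM (fragments per kilobase of transcript, scaled to the number of mapped fragments) in at least 2 of the 4 libraries and were tested. X-linked, Y-linked and mitochondrially encoded genes stayed out, because CD replicate 6 lists every X-linked and Y-linked gene at 0 and has only 1 mitochondrially encoded gene above 0, against 15 in each of the other 3 libraries. Each library was rescaled to the same sum over autosomal genes, and every level below is a rescaled FPKM.

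BAT burns fatty acids and glucose in mitochondria that are uncoupled by Ucp1, and brown adipocytes also make fatty acids from glucose with Acaca and Fasn and lengthen them with Elovl3 and Elovl6. Obese adipose tissue is known to gain macrophages and fibrous matrix and to secrete more leptin. In a bulk sample, fewer cells of a type and less RNA per cell cannot be told apart.

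The libraries differed within each diet in ways that touch the results. Transcripts of the satellite-repeat gene Gm10800 stood at 9038 FPKM as deposited in CD replicate 8 and 15726 in HFD replicate 2, against 0.0998 in CD replicate 6 and 3.10 in HFD replicate 6. HFD replicate 2 was therefore set against CD replicate 8, and HFD replicate 6 against CD replicate 6, as 2 matched pairs, and this matching rests on the measured repeat level and not on a label. The deposited identifier of CD replicate 6 begins differently from those of the other 3 libraries, and what that marks is not stated. It begins like those of the libraries of the series left out here. The pair of HFD replicate 6 and CD replicate 6 is therefore not matched in this respect. Estimated depth was 91000000 to 117800000 fragments per library, at which 1 fragment on a transcript of 2000 bases is worth 0.00459 to 0.00594 FPKM as deposited. The brown fat markers Ucp1, Cidea, Cox8b and Cox7a1 were among the abundant transcripts in all 4 libraries, with Ucp1 at 2999, 3135, 2320 and 2440 in CD replicates 6 and 8 and HFD replicates 2 and 6.

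With 2 libraries a group, limma called 0 genes (0.0%) at an adjusted p under 0.05 and a 2-fold difference. The lowest adjusted p in that limma fit was 0.176, and 2329 genes had an unadjusted p under 0.05. An exact permutation test of 2 against 2 cannot go below p = 0.333. Genes are therefore described as higher or lower, by 3 counts. The first is a difference of at least 2-fold in the same direction in both matched pairs, after adding 1 to each level. It held for 255 genes higher under HFD (1.43% of those tested) and 115 lower (0.646%). Every 2-fold count below was made with 1 added. Genes at low levels can therefore be over 2-fold apart by their printed levels and not be counted. The next is a planned limma fit with the repeat level, high or low, as a term, which is the same as a block on the matched pairs and has 1 residual degree of freedom. It called 225 genes higher (1.26%) and 96 lower (0.539%). Of these, 193 and 83 were also 2-fold apart in both pairs. The last is that both HFD libraries lay above both CD libraries, as for 5784 genes (32.5%), or below them, as for 1911 (10.7%). The median log2 fold change of all genes tested was 0.10, so the list medians below are read against that value. The 3 counts rest on the same 4 libraries and are not independent of each other. With median centring, which moved the median of all genes by -0.23, 39.7% of the genes 2-fold apart in both pairs were higher under HFD, and with quantile normalization 48.5%, against 68.9% here, so the balance of higher against lower genes depends on the scaling.

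**Figure D1:**
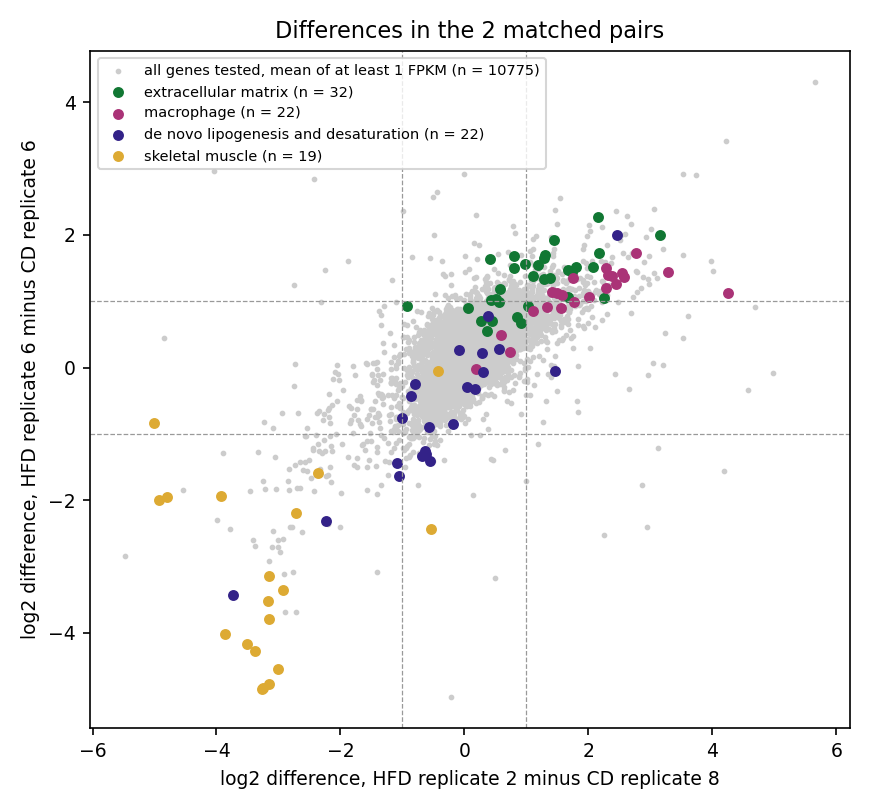
Each point is a gene, with the log2 difference of HFD replicate 2 and CD replicate 8 on the x axis and that of HFD replicate 6 and CD replicate 6 on the y axis; dashed lines mark 2-fold. Matrix and macrophage genes lie mostly in the upper right, and skeletal muscle genes with Fasn and Acaca in the lower left.

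The enzymes that build fatty acids were lower under HFD. Of 22 genes of de novo lipogenesis and desaturation, 4 were 2-fold lower in both pairs and 1 was higher, 12 had both HFD libraries below both CD libraries and 3 above, and the median log2 fold change was -0.59. Less the median of all genes, that median lay between -0.83 and -0.55 over the 14 settings fitted. The count 2-fold lower in both HFD libraries was 4 against CD replicate 8 alone and 7 against CD replicate 6 alone. Fasn (ENSMUSG00000025153, GRCm38 chr11:120805846-120824547), fatty acid synthase, stood at 321 in CD replicate 6, 864 in CD replicate 8, 64.2 in HFD replicate 2 and 28.9 in HFD replicate 6. The groups did not overlap, although the CD libraries themselves differed widely. Its log2 fold change was -3.58 ± 0.61 (SE), with an adjusted p of 0.225 by limma and 0.0155 by limma with the repeat term. Acaca, which makes malonyl-CoA for that synthase, stood at 140 and 194 in CD and 40.5 and 27.4 in HFD, a log2 fold change of -2.27 ± 0.28. Me1, a source of NADPH, stood at 81.1 and 72.3 in CD and 33.6 and 29.4 in HFD. Thrsp, a lipogenic protein of adipose tissue and liver, stood at 268 and 206 against 98.2 and 85.7. In each of these 3 genes both HFD libraries lay under both CD libraries.

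Upstream and downstream steps of the same route were lower by less. Acly, which cleaves citrate to acetyl-CoA, stood at 78.9 and 50.01 in CD and 30.8 and 30.7 in HFD, and Slc25a1, the citrate carrier, at 67.7 and 63.7 against 40.6 and 27.8. Scd1, the desaturase, stood at 2591 and 3755 against 2055 and 1931. The transcription factors Srebf1 (31.4, 32.6, 40.2 and 29.9 in CD replicates 6 and 8 and HFD replicates 2 and 6) and Mlxipl (11.9, 18.8, 17.6 and 14.4) overlapped between diets. Fads3, a desaturase-family member, went the other way, with 2.16 and 1.51 in CD and 12.8 and 11.7 in HFD.

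The promoters of 3 of these genes are shown because their transcripts were lower together. The windows hold the 250 bases before the start site, from RefSeq (GRCm38.p6), 5′ to 3′ on the gene's strand, and capitals mark letters that match CCAAT or AGGTCA on either strand. The windows are Fasn at chr11:120824548-120824797 (minus strand), Thrsp at chr7:97417551-97417800 (minus strand) and Elovl6 at chr3:129532136-129532385 (plus strand).
Fasn: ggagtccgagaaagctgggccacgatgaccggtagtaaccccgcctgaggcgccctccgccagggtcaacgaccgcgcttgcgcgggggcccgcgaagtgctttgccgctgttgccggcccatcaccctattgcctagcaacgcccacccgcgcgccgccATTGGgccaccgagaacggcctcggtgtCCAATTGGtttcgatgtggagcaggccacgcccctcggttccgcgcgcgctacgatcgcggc
Thrsp: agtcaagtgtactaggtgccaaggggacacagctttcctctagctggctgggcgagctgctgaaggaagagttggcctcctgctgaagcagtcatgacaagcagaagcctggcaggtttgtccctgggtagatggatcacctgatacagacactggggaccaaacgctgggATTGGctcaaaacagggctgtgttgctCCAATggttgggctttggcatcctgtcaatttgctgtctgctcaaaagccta
Elovl6: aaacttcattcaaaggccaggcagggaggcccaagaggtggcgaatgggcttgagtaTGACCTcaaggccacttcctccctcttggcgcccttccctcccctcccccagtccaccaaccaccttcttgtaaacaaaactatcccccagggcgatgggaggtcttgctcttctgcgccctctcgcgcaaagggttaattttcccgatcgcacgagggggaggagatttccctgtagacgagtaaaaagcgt
The 5 motifs searched on both strands were the E-box CACGTG, the sterol element core TCACNCCAC, CCAAT, the nuclear receptor site AGGTCA and the cAMP element TGACGTCA. Fasn held CCAAT 3 times, of which the last 2 overlap, Thrsp held it 2 times, and Elovl6 held 1 AGGTCA. Of 37 promoter windows matched for 30 of the 34 genes in the lipogenesis and elongation lists, 19 held CCAAT, against 33.8% of 32851 promoters. CACGTG was in 4 (6.02% of all promoters), AGGTCA in 3 (14%), and TCACNCCAC and TGACGTCA in 1 each (1.05% and 1.55%). A match is a description of letters and not a site in use.

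Fatty acid elongation showed the same direction in its main enzymes. Of 10 genes tested, 2 were 2-fold lower in both pairs and 1 higher, with a median log2 fold change of -0.48. Elovl6, which extends palmitate, stood at 63.5 and 82.4 in CD and 16.5 and 12.03 in HFD, a log2 fold change of -2.28 ± 0.24. Elovl3, the elongase of very long chains in brown fat, stood at 200 and 161 against 20.7 and 14.6. Elovl5 (20.1 and 25.9 against 14.3 and 12.01) was lower by less, and Elovl1 was higher, at 2.19 and 2.87 against 8.61 and 5.57.

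Lipid uptake and transport genes were mixed, and most acyl-CoA thioesterases lay lower. Acsl5, an acyl-CoA synthetase, stood at 74.0 and 74.2 in CD and 15.4 and 13.7 in HFD, a log2 fold change of -2.28 ± 0.16. Apoc1, an apolipoprotein, stood at 498 and 378 against 126 and 139. Of 18 genes of lipoprotein lipase and fatty acid uptake these were the only 2 to be 2-fold lower in both pairs, and none was 2-fold higher, although 1 was higher against CD replicate 8 alone and 2 against CD replicate 6 alone. Lpl overlapped, at 369 and 590 in CD and 476 and 293 in HFD, as did Fabp4 at 5657 and 4728 against 5442 and 5290. Apoe, at 174 and 213 in CD and 406 and 363 in HFD, was higher. Among 11 acyl-CoA thioesterases, 7 lay lower without overlap and 1 higher, with a median log2 fold change of -0.19. Less the median of all genes, that median lay between -0.44 and -0.20 over the 14 settings fitted. With 1 added, 2 were 2-fold lower in both pairs, Acot1 and Acot11, the latter at 37.7 and 51.2 against 21.9 and 15.02. Acot3, Acot4 and Acot12 were lower without overlap too, and fell short of 2-fold only after 1 was added.

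**Figure D2:**
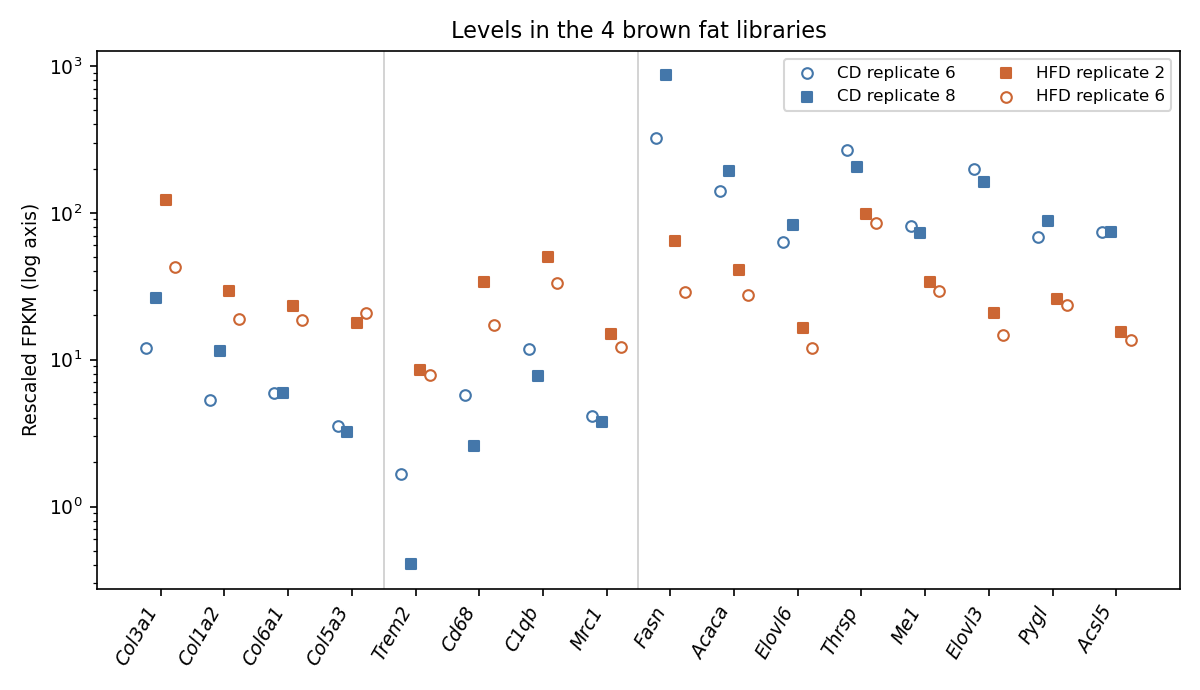
Rescaled FPKM of 16 genes on a log axis, 1 point per library; circles are CD replicate 6 and HFD replicate 6, and squares are CD replicate 8 and HFD replicate 2. In the 8 matrix and macrophage genes on the left both HFD points lie above both CD points, and in the 8 metabolic genes on the right both lie below.

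Mitochondrial lists were lower by a small and even amount. All 35 complex I genes tested had a log2 fold change below 0, from -0.49 to -0.05, with a median of -0.29, although Ndufa2 was at 0.055 with FPKM as deposited and at 0.025 without CD replicate 6. Medians in the matched pairs were -0.28 and -0.30. In 19 of the 35 both HFD libraries lay below both CD libraries and in 0 above. For example, Ndufb9 stood at 665 and 542 in CD and 392 and 466 in HFD. None was 2-fold apart in both pairs. Complexes III to V gave a median of -0.30 over 37 genes, with 23 lower without overlap and 1 higher. Their one member 2-fold lower in both pairs, Cox6a2, is the muscle form of its subunit, at 8.08 and 43.8 in CD and 4.57 and 0.498 in HFD. The medians were -0.23 for the citric acid cycle, -0.28 for mitochondrial beta-oxidation and -0.30 for branched-chain amino acid catabolism. The pyruvate carrier subunits Mpc1 (555 and 446 against 253 and 301) and Mpc2 (381 and 354 against 212 and 207) were lower by more. Exceptions were Cpt1a, the liver form of the carnitine transferase, at 3.75 and 6.00 in CD and 13.6 and 8.96 in HFD, Idh2 at 116 and 113 against 202 and 210, and Bcat1 at 0.525 and 0.363 against 3.24 and 2.69. Cpt1b, the form abundant in brown fat, was level, at 347, 334, 346 and 334. Less the median of all genes, the complex I median lay between -0.58 and -0.21 over the 14 settings fitted, that of complexes III to V between -0.59 and -0.14, and that of beta-oxidation between -0.50 and -0.15.

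**Figure D3:**
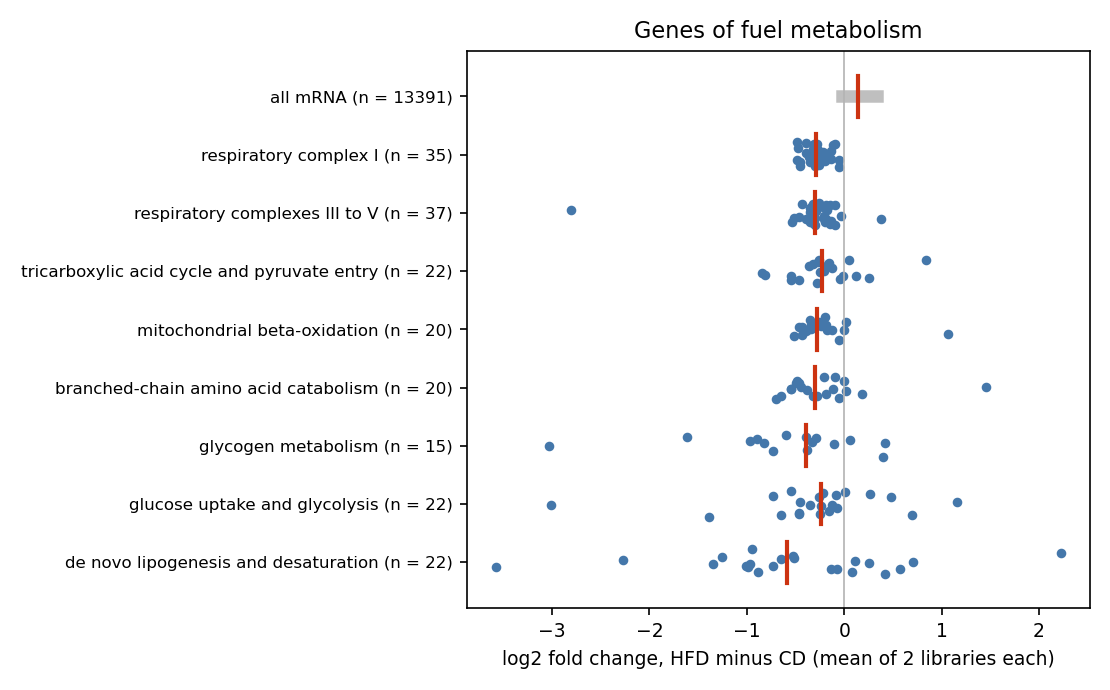
Each point is a gene, at its log2 fold change between the means of the 2 libraries per diet, and red bars are medians; for all 13391 mRNA genes only the median and the middle range are drawn. The mitochondrial lists sit close to -0.3 with few genes apart from the rest.

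Of 15 glycogen genes, 10 lay lower without overlap and 3 higher, and 2 were 2-fold lower in both pairs, Pygl and Pygm. Pygl, the liver form of glycogen phosphorylase, stood at 68.7 and 88.4 in CD and 26.03 and 23.6 in HFD, a log2 fold change of -1.61 ± 0.20. Gys2 (31.5 and 24.4 against 17.1 and 13.6) and Ugp2 (99.5 and 75.4 against 48.0 and 39.8) were lower by less. Pygm and Eno3, the muscle forms of phosphorylase and enolase, were lower in the way of muscle genes. Eno3 was the only member of 22 glycolysis genes to be 2-fold lower in both pairs with 1 added. Pfkm (16.8 and 42.8 in CD, 11.6 and 8.01 in HFD) was so only before 1 was added. Of those 22 genes, 9 lay lower without overlap and 2 higher, with a median log2 fold change of -0.24. Less the median of all genes, that median lay between -0.455 and -0.197 over the 14 settings fitted.

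Skeletal muscle transcripts were lower under HFD and uneven within each diet. Of 19 tested, 16 were 2-fold lower in both pairs and none higher, with a median log2 fold change of -3.37. Less the median of all genes, that median lay between -4.82 and -2.26 over the 14 settings fitted. The count 2-fold lower in both HFD libraries was 17 against CD replicate 8 alone and 9 against CD replicate 6 alone. Their summed level was 601 in CD replicate 6, 2656 in CD replicate 8, 276 in HFD replicate 2 and 35.9 in HFD replicate 6. Tnnc2 overlapped between diets, at 22.6 in CD replicate 6 and 22.6 in HFD replicate 2. The part of muscle RNA in the results on Pygm, Eno3, Cox6a2 and Ckmt2 was not tested.

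Extracellular matrix genes were higher under HFD. Of 32 tested, 16 were 2-fold higher in both pairs and 0 lower, 28 lay higher without overlap, and 16 were called by limma with the repeat term. The median log2 fold change was 1.26, and less the median of all genes it lay between 0.93 and 1.30 over the 14 settings fitted. Among fibrillar collagens, Col3a1 stood at 12.1 and 26.3 in CD and 121 and 42.4 in HFD, and Col1a2 at 5.33 and 11.5 against 29.4 and 18.9. Col5a3 (ENSMUSG00000004098) was steadier, at 3.55 and 3.24 against 17.9 and 20.9, a log2 fold change of 2.21 ± 0.18 with an adjusted p of 0.176 by limma and 0.0160 by limma with the repeat term. The microfibril collagens Col6a1 (5.92 and 5.90 against 23.04 and 18.7) and Col6a2 (3.93 and 4.04 against 15.1 and 12.7) and the basement membrane collagen Col4a1 (27.7 and 49.7 against 124 and 92.1) were higher too. Sparc, which binds collagen, stood at 49.7 and 94.7 against 249 and 129. Fn1, fibronectin, did not follow, at 2.33 and 12.8 in CD and 6.23 and 5.35 in HFD. The count of matrix genes 2-fold higher in both HFD libraries was 11 against CD replicate 8 alone and 22 against CD replicate 6 alone.

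Macrophage transcripts were higher as well. Of 22 tested, 15 were 2-fold higher in both pairs and 0 lower, 20 lay higher without overlap, and 7 were called by limma with the repeat term. The count 2-fold higher in both HFD libraries was 17 against CD replicate 8 alone and 13 against CD replicate 6 alone. The median log2 fold change was 1.55, with 1.89 in the pair of HFD replicate 2 and CD replicate 8 and 1.13 in the other. Less the median of all genes, it lay between 1.11 and 1.91 over the 14 settings fitted. The summed level was 244 and 103 in CD replicates 6 and 8 and 602 and 569 in HFD replicates 2 and 6. Cd68, a lysosomal marker, stood at 5.79 and 2.58 in CD and 33.9 and 17.3 in HFD. Trem2, a lipid receptor of tissue macrophages, stood at 1.66 and 0.404 against 8.51 and 7.81, and Mrc1, the mannose receptor, at 4.16 and 3.75 against 15.1 and 12.2. The complement subunits C1qa, C1qb and C1qc had log2 fold changes of 1.85 ± 0.34, 1.98 ± 0.30 and 1.86 ± 0.29. Cx3cr1 was low throughout, at 0.241, 0.198, 0.363 and 0.226. Mmp12, a macrophage elastase, stood at 3.76 and 0.675 against 13.97 and 17.99.

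Of 22 chemokines and cytokines, 3 were 2-fold higher in both pairs, Ccl6, Ccl8 and Ccl9, and the count was 7 against CD replicate 8 alone and 4 against CD replicate 6 alone. Ccl2 was not, since CD replicate 6 stood at 26.2 against 0.486 in CD replicate 8, and HFD stood at 16.1 and 36.2. Of 17 interferon-stimulated genes, 14 lay higher without overlap, and Ifi27l2a stood at 232 and 138 in CD and 523 and 570 in HFD. It was the only one 2-fold higher in both pairs with 1 added, and against CD replicate 8 alone the count was 6. Ifit1 (3.32 and 1.38 in CD, 3.71 and 6.78 in HFD) was 2-fold higher in both pairs only before 1 was added. Of 7 MHC class II genes, 6 lay higher without overlap with a median of 0.74. With 1 added, 0 were 2-fold higher in both pairs, against 2 with CD replicate 6 alone. Before 1 was added H2-DMb1 was, at 1.17 and 1.14 in CD and 2.79 and 2.66 in HFD. Of 8 neutrophil and mast cell genes, 6 lay higher without overlap and 1 lower, and 2 were 2-fold higher in both pairs, against 1 with CD replicate 8 alone and 3 with CD replicate 6 alone. The 2 in both pairs were the mast cell proteases Cma1 (0.603 and 0.710 against 2.96 and 2.80) and Tpsb2 (0.311 and 0.658 against 2.81 and 1.70). Mcpt4 and Cpa3, also at low levels, were over 2-fold higher in both pairs only before 1 was added. Of 13 lymphoid genes, 7 lay higher without overlap and 2 were 2-fold higher in both pairs, Ighm, an antibody heavy chain, at 1.05 and 2.88 in CD and 9.81 and 3.31 in HFD, and Ptprc, the common leukocyte antigen, at 3.30 and 2.28 against 6.66 and 8.15. The lymphoid median was 0.14, and less the median of all genes it changed sign over the settings, from -0.0084 to 0.99. Against either CD replicate alone, 1 lymphoid gene was 2-fold higher in both HFD libraries. Cd3d, a T cell receptor subunit, was low, at 0.107, 0.0891, 0.293 and 0.115. All 14 proliferation genes tested lay higher without overlap, with a median of 0.46. None was 2-fold apart in both pairs with 1 added, although 2 were 2-fold higher against CD replicate 8 alone. The low levels of Mcm5, Cdk1 and Mki67 were over 2-fold higher in both pairs before 1 was added.

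**Figure D4:**
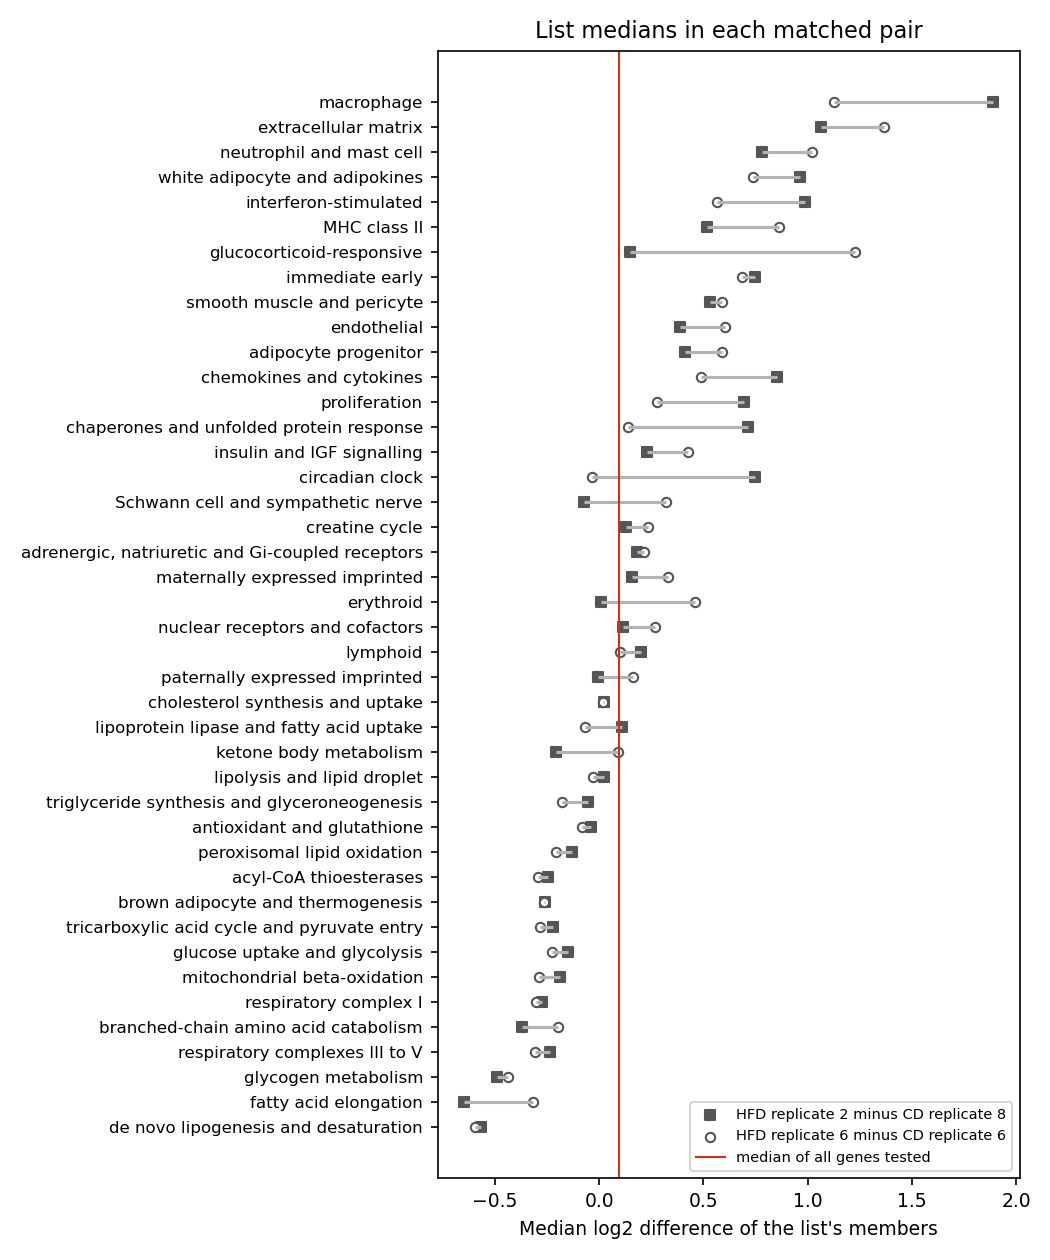
Median log2 difference of each list in the pair of HFD replicate 2 and CD replicate 8 (squares) and in the pair of HFD replicate 6 and CD replicate 6 (circles); the skeletal muscle list, at -3.17 and -3.35, lies outside the range drawn. The macrophage list lies at 1.89 and 1.13 and the matrix list at 1.06 and 1.37, and lipogenesis lies below 0 in both pairs, at -0.56 and -0.59.

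Adipokines and secreted proteins included the highest genes of the comparison. Of 16 white adipocyte and adipokine genes, 6 were 2-fold higher in both pairs and 0 lower, which were Lep, Nnmt, Wfdc21, Sncg, Npr3 and Saa3. The count of 6 was 8 against CD replicate 8 alone and 5 against CD replicate 6 alone. Lep, leptin, stood at 2.50 and 0.418 in CD and 70.6 and 68.5 in HFD. Outside that list, Rarres2, which encodes chemerin, stood at 36.8 and 22.4 against 139 and 152, and its receptor Cmklr1 at 0.773 and 1.44 against 5.08 and 3.27. Nnmt, which methylates nicotinamide, stood at 7.06 and 7.05 against 30.3 and 23.1. Adipoq, adiponectin, and Rbp4, a retinol carrier, were lower without overlap and by less than 2-fold in at least 1 pair, Adipoq at 485 and 405 against 373 and 396 and Rbp4 at 14.7 and 11.6 against 7.60 and 6.46. Hoxc8, a patterning gene of white fat (1.52, 1.73, 2.21 and 0.753), and Agt, which encodes angiotensinogen (0.0951, 0.416, 0.111 and 0.218), overlapped between diets.

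Of 19 thermogenic genes tested, 2 were 2-fold lower in both pairs, Elovl3 and Slc27a2, 8 lay lower without overlap and 2 higher. The count of 2 was 3 against CD replicate 8 alone and 1 against CD replicate 6 alone. The median log2 fold change was -0.22, with -0.26 in each matched pair, and less the median of all genes it lay between -0.51 and -0.19 over the 14 settings fitted. Cidea, a lipid droplet protein, stood at 951 and 1036 in CD and 532 and 338 in HFD. Kcnk3 stood at 33.3 and 52.3 against 24.4 and 17.9. Ppargc1a (3.74, 7.98, 8.48 and 5.46) and Prdm16 (1.88, 2.92, 2.94 and 2.001) overlapped. Ucp1 lay lower without overlap, with a log2 fold change of -0.37 ± 0.27. Under quantile normalization this was 0.01. That setting gives equal ranks equal values, so it can show little change in a gene as abundant as Ucp1. Of the adrenergic and related receptors, Adcy3, an adenylyl cyclase, was lower at 44.2 and 59.6 against 19.8 and 16.3, and Sucnr1, the succinate receptor, was higher at 1.11 and 0.909 against 3.81 and 4.12.

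The genes farthest from 0 were ranked by the smaller of their 2 pair differences. Npr3, the clearance receptor of natriuretic peptides, stood at 3.68 and 3.52 in CD and 50.8 and 34.3 in HFD, a log2 fold change of 3.22 ± 0.24. The imprinted genes Nnat (4.49 and 4.54 against 102 and 57.9) and Mest (0.449 and 0.775 against 9.87 and 6.04) were higher, whereas the medians of both imprinted lists stayed near that of all genes. Ubd, a ubiquitin-like protein, stood at 0.975 and 0.169 against 8.76 and 9.32, and Serpina3n, a secreted protease inhibitor, at 1.68 and 1.29 against 11.5 and 12.8. Dpt, the matrix protein dermatopontin, stood at 11.1 and 15.2 against 74.2 and 51.7, Ccn5, a secreted matricellular protein, at 0.584 and 0.385 against 4.59 and 6.05, and Amotl2, an angiomotin, at 4.71 and 6.56 against 29.9 and 22.7. Of the 15 mRNA genes at the lower end, all but Fasn and Elovl3 were muscle genes or muscle forms of an enzyme, such as Myh4, a fast myosin, at 24.6 and 266 in CD and 17.4 and 0.583 in HFD.

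Endothelial, smooth muscle and progenitor lists held no gene that was 2-fold apart in both pairs with 1 added. Of 14 endothelial genes, 9 lay higher without overlap with a median of 0.56, and Egfl7 stood at 47.2 and 46.8 in CD and 74.2 and 72.5 in HFD. Acta2, smooth muscle actin, stood at 5.27 and 12.98 against 26.7 and 17.5, and was over 2-fold higher in both pairs before 1 was added. Of 8 progenitor genes, 6 lay higher without overlap, and Cd34 stood at 7.70 and 7.02 against 15.6 and 13.8.

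Triglyceride and cholesterol lists were mixed, and the peroxisomal list was lower by a small amount. Of 16 genes of triglyceride synthesis none was 2-fold apart in both pairs with 1 added. Mogat1 (7.03 and 5.41 against 3.06 and 2.25) was lower and Lpin3 (0.576 and 0.515 against 1.90 and 2.44) higher without overlap. Lpin3 was over 2-fold higher in both pairs before 1 was added. Of 20 cholesterol genes none was 2-fold apart in both pairs either, and the list's median, less that of all genes, changed sign between settings. Among 22 peroxisomal genes, 10 lay lower without overlap and 2 higher, with a median log2 fold change of -0.18. Less the median of all genes, that median lay between -0.45 and -0.19 over the 14 settings fitted. Ehhadh, the bifunctional oxidation enzyme, stood at 60.6 and 147 in CD and 24.4 and 19.97 in HFD. Abcd2, a transporter of very long acyl chains, went the other way, at 22.4 and 14.1 against 45.3 and 47.4. Of 18 lipolysis and droplet genes, Fitm1, the muscle-enriched form, was the only one 2-fold apart in both pairs.

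Signalling and stress genes gave scattered differences. The median of 10 glucocorticoid-responsive genes differed between the pairs. It was 0.15 for HFD replicate 2 and CD replicate 8 and 1.225 for HFD replicate 6 and CD replicate 6. Among these genes, Zbtb16 stood at 1.73 and 4.11 in CD and 13.01 and 13.2 in HFD and Sult1a1 at 12.4 and 11.6 against 28.6 and 40.4. Hsd11b1, which regenerates active glucocorticoid, was lower at 30.2 and 53.1 against 13.7 and 11.2. Of 23 insulin and IGF genes, Igf1 (0.968 and 1.51 against 6.26 and 3.03) and Igfbp7 (28.7 and 24.5 against 58.6 and 66.2) were 2-fold higher in both pairs. Akt2 was level, at 81.8, 81.5, 82.0 and 80.2. Among 19 chaperone genes, Sdf2l1 was the only one 2-fold higher in both pairs with 1 added. The count was 4 against CD replicate 8 alone and 0 against CD replicate 6 alone. Gdf15 (0.974 and 0.320 against 4.28 and 2.65) was 2-fold higher in both pairs only before 1 was added. Atf4, the stress-response factor, stood at 24.8 and 25.01 against 49.3 and 53.3. Of 24 antioxidant and glutathione genes, 5 lay higher without overlap and 3 lower, with a median log2 fold change of -0.12. The glutathione transferase Gstt1 (7.23 and 4.78 against 18.2 and 17.7) and Hmox1, the heme oxygenase (12.5 and 5.03 against 18.1 and 29.7), were 2-fold higher in both pairs. Gsta4 went the other way, at 33.7 and 29.55 against 18.2 and 14.9. Of 20 immediate early genes, 13 lay higher without overlap. With 1 added, 2 were 2-fold higher in both pairs, against 4 with either CD replicate alone, with Dusp1 at 6.60 and 6.80 against 20.99 and 33.1. Fos (0.578 and 0.681 against 2.93 and 2.15) was 2-fold higher in both pairs only before 1 was added.

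Among lncRNA genes, 7 of 2046 tested were 2-fold higher in both pairs and 3 lower. Both are smaller shares than the 1.43% and 0.646% of all genes tested. Against CD replicate 8 alone the lncRNA counts were 6 and 15, and against CD replicate 6 alone 10 and 5. Which direction held more lncRNA genes therefore depended on the CD library. AI506816 stood at 1.28 and 2.096 in CD and 5.58 and 4.03 in HFD, and Rian, from an imprinted cluster, at 6.26 and 5.21 against 12.5 and 14.1. A930016O22Rik was lower, at 5.65 and 16.8 against 1.90 and 0.198, in the order of the muscle sums, and it lies within the span of the muscle gene Ckm on the opposite strand. Whether the FPKM were made with strand is not stated, so reads of Ckm and A930016O22Rik may not be told apart. The same holds for other genes named here that overlap a gene on the opposite strand, such as Nnat with Blcap, Mest with Copg2, and Igf1 with Igf1os. H19, a maternally expressed imprinted lncRNA and the one lower member of its list by the pair count, stood at 2.67 and 15.7 in CD and 1.33 and 0.128 in HFD, also in the order of the muscle sums. Fasn, Acaca, Elovl6 and Ehhadh had the same order. By ratio their 2 HFD libraries lay closer together than those of H19, as at 64.2 and 28.9 for Fasn. The part of muscle RNA in the values of H19 and A930016O22Rik was not tested. Gm32468 was the other lower lncRNA gene, at 1.52 and 1.68 against 0.143 and 0.0102. Gm20536, not 2-fold apart, was steady within diets, at 62.2 and 59.6 against 30.1 and 31.3.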

How the data were processed

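BAT RNA-Seq libraries of 2 CD and 2 HFD mice were used. After ribosomal RNA depletion and directional library preparation, the authors mapped reads to GRCm38 with TopHat2 2.0.10 and deposited FPKM from Cufflinks, 1 value per gene and library, without pooling. The submitters' processing notes name Cufflinks 2.2.1, and the study's methods give another release. The authors' DESeq2 counts were not used here. Values were rescaled to a common autosomal sum and tested by moderated linear models (R 4.3.3, limma 3.58.1, trended prior variance) after adding 1 and taking log2, with no covariate. The p-values were two-sided and adjusted by Benjamini-Hochberg over the 17796 genes tested. Because 1 was added, fold changes of low genes are understated. The fit was also run on simulated data with the same spread for every gene. That checks the code and does not show what the fit can call in these data. Gene types and symbols came from GENCODE M21, which matched 49109 of 49452 identifiers. Depth was estimated from the low values of genes with 1 transcript and 1 exon, of which 97.9% to 98.7% were within 0.1 of a whole number of fragments. A whole multiple of the estimate could also do so.

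Members and the 43 gene lists were chosen with earlier results of these data known. Of 778 list entries, 738 were tested, and the others were under the filter or not analysed here. Named genes were the 15 mRNA and 5 lncRNA genes farthest from 0 each way by the smaller pair difference, at a mean of at least 1 FPKM, and in each list the first gene and up to 4 others with the largest change. Other genes named were chosen after their values were seen. Some genes that this rule gives are not reported here. The mice were housed in groups, and no source ties a library to a cage or date, so p-values measure only the spread between these libraries. Alternatives changed scaling, pseudocount, filter, trend, the repeat term and the libraries.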

Additional observations from a re-analysis of the deposited data

Results flagged for a closer look

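X-linked genes were outside the comparison because CD replicate 6 lists them at 0. Against CD replicate 8 alone, 13 of 522 X-linked genes were at least 2-fold higher in both HFD libraries and 6 were lower, with no replicate check on the CD side and no test. For autosomal genes the same comparison gave 394 higher and 258 lower of 17796, or 2.21% and 1.45%. The shares on the X chromosome were close to these, at 2.49% and 1.15%. The autosomal genes had been filtered over all 4 libraries, and the X-linked genes without CD replicate 6. Timp1, an inhibitor of matrix proteases, stood at 0.447 in CD replicate 8 and 5.30 and 8.85 in HFD replicates 2 and 6. Tmsb4x, which binds actin, stood at 93.9, 296 and 415, and Cybb, a subunit of the phagocyte oxidase, at 1.16, 4.27 and 3.37. Smpx, a muscle gene, was lower, at 11.4, 0.683 and 0.0677.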

How the results depend on the processing

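The limma count of 0 genes was 0 under 8 of the 13 alternatives, and 12 with FPKM as deposited, 321 with the repeat term, 532 without CD replicate 6, 2 without HFD replicate 6 and 1 without CD replicate 8, so leaving out 1 library gave 0 to 532. A library left alone in its group was assumed to vary like the other group. The count of genes 2-fold higher in both pairs was 255 as reported, and 38 at 3-fold, 122 with median centring, 145 with quantile normalization, and 334 to 394 leaving out a CD library. The count of lower genes was 115 as reported, and 57 at 3-fold, 57 with the pairs crossed, 185 with median centring, and 79 to 258 leaving out a CD library. Without CD replicate 6 and CD replicate 8, 200 and 217 of the 255 higher and 111 and 57 of the 115 lower genes were among those counted. In lists with a count of 0 to 2 in both pairs whose change is not given in the text above, using 1 CD library moved it by at most 1. Median centring moved the median of all genes by -0.23. Median centring, quantile normalization and leaving out CD libraries were chosen for these counts after seeing the data. Of 2989 named-gene values under alternatives, 41 had the opposite sign: with median centring Pnpla2 -0.14, Ppara -0.20, Cd3d -0.10, Mbp -0.039, Hbb-bt -0.0034, Hbb-bs -0.10 and Arntl -0.15, with quantile normalization Ucp1 0.0091 and Arntl -0.14, as deposited Gys1 0.042, Ndufa2 0.055 and Insr 0.14, and with pseudocount 0.1 Insr 0.0011. Leaving out 1 library, ranges were Hmgcs1 -0.051 to 1.04, Gys1 -0.69 to 0.48, Pnpla2 -0.71 to 0.87, Lpl -0.67 to 0.031, Cs -0.27 to 0.79, Dld -1.15 to 0.046, Ndufa2 -0.22 to 0.025, Slc16a1 -0.85 to 0.18, Insr -0.48 to 0.47, Adrb1 -0.081 to 0.85, Rgs2 -2.08 to 0.56, Ppara -0.14 to 0.19, Igkc -0.047 to 1.09, Ccl2 -0.11 to 4.08, Ccl7 -0.17 to 3.93, Mbp -0.21 to 0.58, Hbb-bs -0.28 to 0.54, Arntl -0.71 to 0.87 and Dbp -0.16 to 2.06. The cause was not tested. By replicate number, no paired analysis was possible because the CD and HFD replicates share only the number 6. The fit with the repeat term, which called 321 genes, is a block on the pairs matched by repeat level.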

Other observations

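These gene groups were chosen after the values were seen and were given no test. Of 13 tubulin genes tested, 5 were 2-fold higher in both pairs and 0 lower, with Tubb2a at 5.09 and 3.26 in CD and 13.9 and 16.2 in HFD. Actb, cytoplasmic actin, stood at 184 and 183 against 668 and 469. Of 10 genes of caveolae, 3 were 2-fold higher in both pairs and 0 lower, and 7 lay higher without overlap and 2 lower. Those higher included Cavin1 (57.9 and 41.7 against 114 and 139) and Ehd2 (7.42 and 11.9 against 33.95 and 23.7), and the 2 lower were the muscle forms Cav3 and Cavin4.

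Of 12 genes of serine synthesis and one-carbon metabolism, 7 lay higher without overlap and 2 lower, with a median log2 fold change of 0.24. Phgdh (3.75 and 1.93 against 17.9 and 20.3), Psat1 (1.98 and 0.785 against 8.16 and 7.92) and the amino acid transporter Slc1a5 (25.04 and 33.8 against 98.6 and 70.4) were the 3 that were 2-fold higher in both pairs. Psph, the last enzyme of serine synthesis, was not, at 8.90 and 5.32 against 4.35 and 5.01. Of 14 complement genes, 2 were 2-fold higher in both pairs and 1 lower, and 10 lay higher without overlap and 0 lower. Cfb was higher, at 2.75 and 2.05 against 13.6 and 10.3, while C3 was 2-fold lower in both pairs although its groups overlapped, at 32.7 and 116 against 46.8 and 15.1.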
